A study of Drosophila melanogaster with 6 samples.

Results

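Autophagy and endolysosome genes were described here in muscle-enriched lysates of *Drosophila melanogaster* larvae with and without a muscle knockdown of Mad. They were chosen by name, from the deposited gene symbols: every Atg gene with a number and at most 1 letter, and ref(2)P, Vps34, Vps15, dor, car, lt, Vps16A, Rab5, Rab7, Rab2, Mitf, spin, cathD and Lamp1. The rule uses names and no measured value, but it was set with earlier results of these data known. It matched 33 of the 17807 genes listed. Vps34 is listed in the table under another symbol, Pi3K59F, so it is not counted among the 33, and its values are given beside them. Of the 33 members, 32 passed the filter on low values (3 or more libraries with a normalized count of 10 or higher). The exception was Atg8b, a close relative of Atg8a, with 2 recovered counts in control replicate 1 and 0 in the other 5 libraries.

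All larvae were in the third instar and wandering, having left the food before pupariation, and all carried the Gal4 driver Dmef2-Gal4, which is active in muscle. In the control group it drove UAS-mCherryRNAi, an RNA interference construct against a fluorescent protein that the fly genome does not encode, and in the other group UAS-madRNAi, directed against Mad, the transcription factor of bone morphogenetic protein (BMP) signalling. Each group held 3 libraries of polyadenylated RNA, and each library pooled the lysates of 6 to 10 larvae, so a value is that of a pool and not of a single larva. The labels do not say whether the libraries of a group came from separate crosses or days, so p-values measure only the spread between these pools.

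Autophagy encloses cytoplasm in a double membrane, the autophagosome, which fuses with endosomes and lysosomes where its content is digested. The Atg proteins build this membrane, Rab GTPases and the HOPS complex bring about its fusion with lysosomes, and hydrolases such as cathepsins degrade the cargo. In *Drosophila* larvae the pathway is switched on by starvation and, near the end of larval life, by the steroid hormone ecdysone. In body wall muscle it is known for its part in the turnover of damaged proteins and in the remodelling of muscle at metamorphosis.

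The libraries held 96639921 to 127220949 recovered gene counts each. Counting error was not estimated for single members, of which the lowest tested, Atg10, was at 295 to 401 normalized counts. Mad itself fell to 67.8% of control (log2 fold change -0.57, SE 0.102, limma adjusted p = 0.0440), a call that was lost in 8 of the 18 alternative fits. An exact two-sided permutation test of its 6 values gave p = 0.1, the smallest that 3 libraries against 3 allow. The tissue label was checked against 11 muscle markers, which were all detected, with a summed normalized count of 2856600 to 3872970 in control libraries. After Mad knockdown that sum was 1442280 to 2050870, below every control library. The sum of the 7 haemocyte markers was 136243 to 163191 against 171953 to 227498, and PPO1 and PPO2 made up 70.5% of it. PPO1, PPO2 and Hml did not overlap between the groups, with log2 fold changes of -0.53, -0.38 and -0.85. The other haemocyte markers overlapped, with log2 fold changes of -0.16 for eater, 0.67 for NimC1, 0.11 for He and 0.03 for PPO3. Lower sums were also found for the 6 salivary gland markers, at 29 to 147 against 297 to 2573. The sums of the 7 fat body markers overlapped, at 21845 to 42288 after Mad knockdown and 26534 to 42024 in controls. Those of the 5 nervous system, 5 tracheal and 7 midgut markers overlapped too. The midgut sum was 756 in Mad knockdown replicate 3, 128 and 131 in replicates 1 and 2, and 127 to 175 in controls. Of the tracheal markers, serp and verm were lower without overlap, at 46.8% and 37.7% of control. The tracheal markers btl and trh were higher without overlap, at 109.3% and 116.8%. No marker was at 0 in all 6 libraries. In such bulk lysates fewer cells of a type and less RNA per cell cannot be told apart, and the part of these shifts in the members' values was not tested.

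The levels of the members were compared first, as normalized counts per kilobase of exon, since longer transcripts collect more counts. The length was that of the exons of all annotated transcripts combined, so levels of genes with several transcripts may be understated. The lysosomal protease gene cathD was at 62868, 70359 and 58453 per kilobase in control replicates 1, 2 and 3. Atg8a, which encodes the ubiquitin-like protein that coats the autophagosome membrane, was at 56274, 59294 and 52229. These were the highest members in control libraries, and their ranges overlapped. Lamp1, a lysosomal membrane protein gene, came next at 31693 to 35544 per kilobase, below all control values of Atg8a. Rab7, the GTPase of late endosomes, followed at 18434 to 21020, again with no overlap with its upper neighbour. Rab2, Rab5, ref(2)P, Atg7 and Atg9 followed, each overlapping its neighbour in the order, with control means from 8583 to 10446 per kilobase. The kinase gene Atg1, which starts autophagosome formation, was lower, at 1759 ± 210 per kilobase (SD, n = 3). The lowest tested member was Atg10, an E2-like conjugating enzyme gene, at 240.1 ± 39.3. Atg8b had a control mean of 1.24 per kilobase, so nearly all counts of the Atg8 pair belonged to Atg8a.

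**Figure D1:**
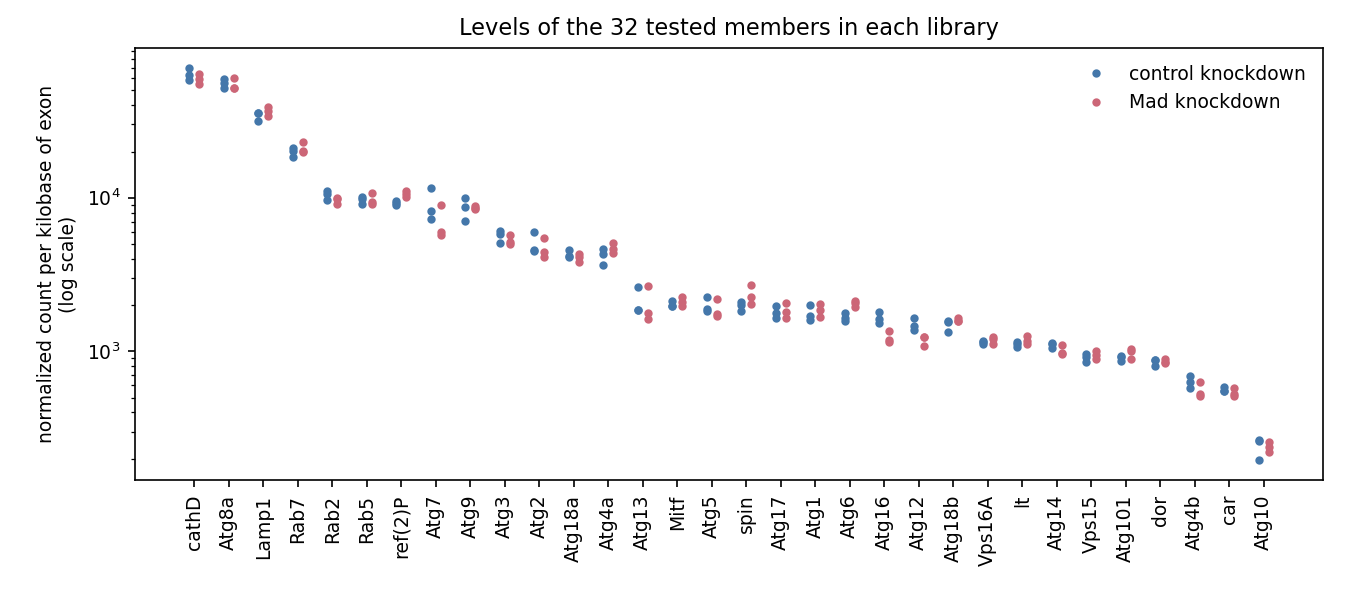
Levels of the 32 tested members, as normalized counts per kilobase of exon on a log axis, in each library of the control knockdown (blue) and the Mad knockdown (red), ordered by the control mean. cathD and Atg8a lie at the top and Atg10 at the bottom, and for most genes the points of the groups lie on each other.

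Which members changed after Mad knockdown was then asked. None of the 32 tested members was called by limma, where a call needed a p-value under 0.05 after Benjamini-Hochberg adjustment over all 10348 tested genes. Of all tested genes 2.59% were called, 1.02% higher and 1.57% lower. At an unadjusted p-value under 0.05 there were 4 members (12.5%), against 19% of all tested genes. These were Atg16 and Atg12, lower after Mad knockdown (10.7% of all tested genes were lower at this level), and Atg6 and ref(2)P, higher (8.31% of all tested genes). The same 4 were the members whose groups did not overlap, which 24.6% of all tested genes showed, 11.6% upwards and 13% downwards. The quasi-likelihood test of edgeR on recovered counts called 0 members and 2.44% of all genes. DESeq2 called 2 members (6.25%), Atg16 and Atg6, and 9.86% of the genes to which it gave an adjusted p-value. Of the 32 members 17 were higher and 15 lower, with a median log2 fold change of 0.01, the same to this precision as that of all tested genes. The median absolute log2 fold change was 0.09 for the members and 0.15 for all tested genes. Among tested genes within the members' range of mean level it was 0.11.

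The intervals show the sizes of change that the values of each gene leave possible. They do not give the size that could go uncalled, since a call needed an adjusted p-value. For 27 of the 32 members the 95% interval of the log2 fold change in limma, not adjusted for the number of genes, lay within 0.5 either way, which is a 1.41-fold change. The share over all tested genes was 51.5%, and 73.6% among those within the members' range of mean level. The 5 members with an interval reaching further were Atg7, Atg13, Atg16, Atg12 and spin. For Atg8a the interval ran from -0.27 to 0.19, and for Mitf, the homologue of the mammalian lysosomal regulator TFEB, from -0.11 to 0.23. A p-value that misses the threshold does not show that a level stayed the same, and these intervals give the sizes that the 6 libraries leave possible.

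**Figure D2:**
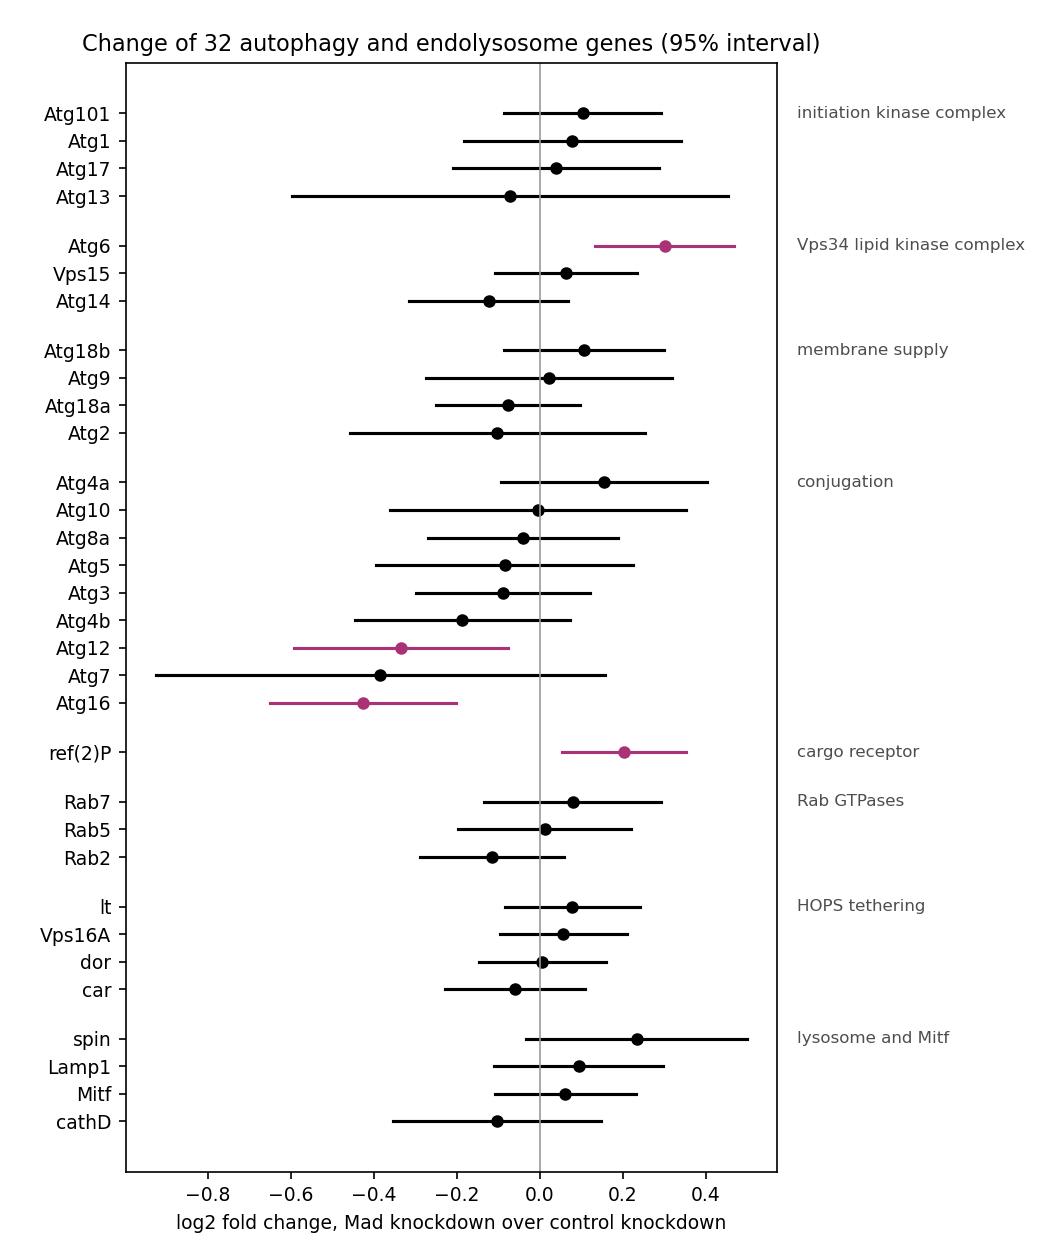
Log2 fold change of Mad knockdown over control knockdown for the 32 tested members, grouped by role; points are limma estimates, bars are 95% intervals not adjusted for the number of genes, and purple marks an unadjusted p-value under 0.05. Most intervals cover 0, and those of Atg16, Atg12, Atg6 and ref(2)P do not.

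The initiation kinase complex consists of the kinase Atg1 and its partners Atg13, Atg17 and Atg101. No gene of it was called, and the log2 fold changes ran from -0.07 for Atg13 to 0.10 for Atg101. Atg17, the large scaffold subunit and the most abundant of the 4 by normalized count, was at 12359.9, 11188 and 10371 in control replicates 1, 2 and 3. After Mad knockdown it was at 11409, 13067 and 10446, so the groups lay on each other (log2 fold change 0.04, SE 0.104, limma adjusted p = 0.888). Atg1 was at 8267, 6591 and 7027 in controls and at 6935, 8453 and 7690.0 after Mad knockdown. Atg13, which links the kinase to nutrient signals, was at 7847, 5551 and 5548 in controls and at 4839.7, 8005 and 5372 after knockdown. Its highest library in each group stood well above the other 2, so its interval was wide, from -0.60 to 0.45.

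The lipid kinase Vps34 marks the forming membrane with phosphatidylinositol 3-phosphate and works with Vps15, Atg6 and Atg14. Atg6 (FBgn0264325, minus strand of chromosome 3R, 24049180 to 24050782), the homologue of mammalian Beclin 1, was at 2362, 2644 and 2455 in control libraries. After Mad knockdown it was at 3185, 3102 and 2903. All 3 knockdown libraries were above all 3 controls, and the mean was 123% of control. The log2 fold change of 0.30 (SE 0.0704) had a limma adjusted p-value of 0.0807, outside the threshold. The alternatives gave adjusted p-values from 0.0147 to 0.222, and the change was positive in all 18.

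The other subunits did not separate in this way. Vps15, the regulatory subunit and the most abundant of this group by normalized count, was at 4159, 4338 and 3873 in controls and 4555, 4308 and 4062 after Mad knockdown. Atg14, which directs the kinase to autophagosome formation, was at 2051 ± 91.9 in controls and 1885 ± 153 after knockdown (SD, n = 3 each). The kinase subunit itself, Pi3K59F, was at 1908 ± 175 and 1923 ± 72.4, with an interval of its log2 fold change from -0.19 to 0.22. The per-kilobase level of Atg6 over that of Pi3K59F was 2.94, 2.80 and 2.58 in control libraries and 3.51, 3.55 and 3.08 after Mad knockdown. This ratio did not overlap between the groups, and neither did Atg6 over Vps15, at 1.73 to 1.93 in controls and 2.13 to 2.19 after knockdown. Atg6 alone did not overlap either, so these ratios are not separate evidence of a change.

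Atg9, Atg2 and the Atg18 proteins bring lipid to the growing membrane, and none of the 4 genes was called. Atg2, a lipid transfer protein gene, was at 37586, 28599 and 28224 in controls and at 27853, 34037 and 25823 after Mad knockdown. Each group held 1 library above the other 2, and the groups overlapped. Atg9, the membrane protein that moves lipids between leaflets, was at 19996, 28239 and 24712 in controls. Its knockdown libraries lay close together at 24058, 24284 and 25008, inside the control range. Atg18a and Atg18b bind the lipid that Vps34 makes, and their log2 fold changes were -0.08 (SE 0.0724) and 0.11 (SE 0.0808).

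The conjugation genes held the members furthest from control in the negative direction. Of the 9 tested, 8 had a negative log2 fold change and Atg4a a positive one, with a median of -0.09. Atg10 was close to 0 and turned positive at the other 3 scalings tried, and Atg8a under quantile normalization, which left 7, 7 and 6 of the 9 negative after TMM, 75th percentile and quantile scaling. Over all tested genes 48.9% were negative, and no conjugation gene was called. Atg16 (FBgn0039705, minus strand of 3R, 29827281 to 29835101) encodes the subunit that brings the Atg12-Atg5 conjugate to the membrane. It was at 3909.7, 4652 and 4159 in control replicates 1, 2 and 3 and at 3051, 2944 and 3468 after Mad knockdown. Every knockdown library was below every control library, and the mean was 74.4% of control. In limma the difference was -0.43 on the log2 scale (SE 0.0937, adjusted p = 0.0708). This adjusted p-value was the smallest among the members, and over the alternatives it ran from 0.00351 in DESeq2 to 0.188.

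Atg12 (FBgn0036255, plus strand of 3L, 12136967 to 12137559), the ubiquitin-like protein joined to Atg5, was at 775, 645 and 688 in controls and at 507, 579 and 584 after knockdown. The groups did not overlap, and the mean was 79.2% of control. On the log2 scale the change was -0.33 (SE 0.108), at a limma adjusted p-value of 0.166. Exons of ND-SGDH, a respiratory chain gene on the opposite strand, cover 13.7% of its exon bases. Whether counting used strand is not given in the sources used here, so part of the Atg12 count is uncertain. ND-SGDH was at a mean of 4345 normalized counts in controls and 3970 after knockdown, against 703 and 557 for Atg12. It had a log2 fold change of -0.13 (SE 0.105) and was not called.

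Atg5, the remaining subunit of the complex, was at 3214, 2663 and 2597 in controls and at 2418, 3126 and 2466 after knockdown, and the groups overlapped. The per-kilobase ratio of Atg16 to Atg5 was 0.673, 0.967 and 0.886 in controls and 0.698, 0.521 and 0.778 after knockdown. In contrast to the level of Atg16 itself, this ratio overlapped between the groups. The ratio of Atg12 to Atg5 did not overlap, as the level of Atg12 itself did not. It was 0.729, 0.732 and 0.801 in controls and 0.634, 0.560 and 0.716 after knockdown. The uncertainty of the Atg12 count applies to this ratio too.

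**Figure D3:**
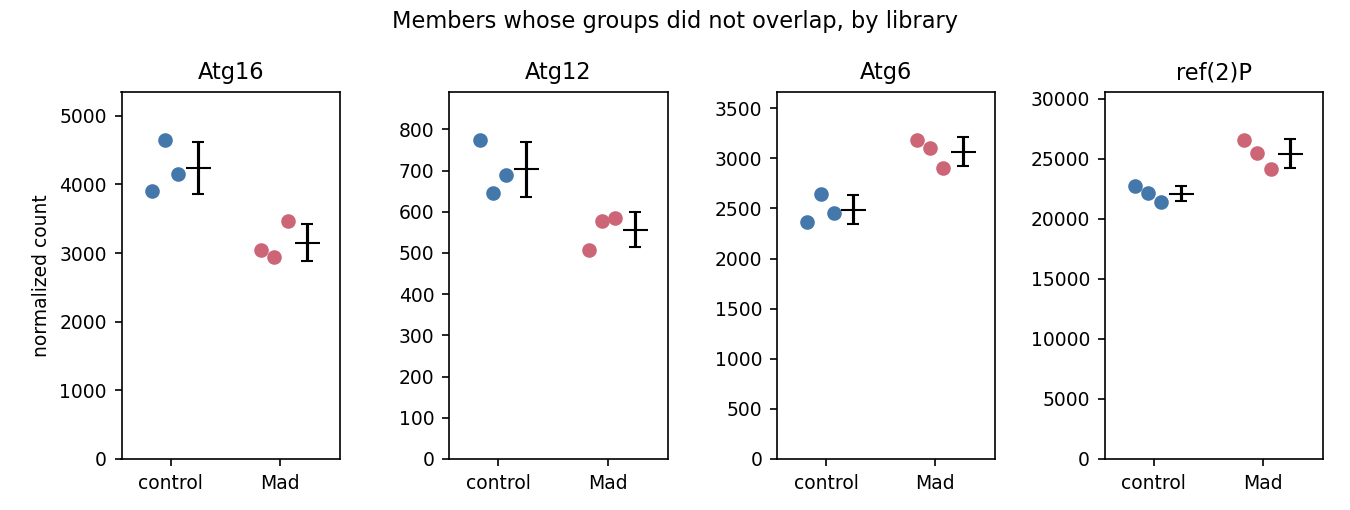
Normalized counts of Atg16, Atg12, Atg6 and ref(2)P in each control (blue) and Mad knockdown (red) library, with axes from 0; black bars are the mean and SD of 3 libraries. The groups do not overlap in any panel, and none of the 4 genes was called over all genes in limma.

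Atg8a and the enzymes that process it overlapped between the groups. Atg8a was at 95384, 100503 and 88529 normalized counts in controls and at 87856, 101630.0 and 87457 after Mad knockdown. These values overlapped almost fully, with a log2 fold change of -0.04 (SE 0.0960, limma adjusted p = 0.872). Atg7, the E1-like enzyme that activates Atg8a and Atg12, had a log2 fold change of -0.38. Its libraries were far more scattered, at 27635, 17339 and 19563 in controls and 13786, 21369 and 14299.6 after knockdown. The groups overlapped, the SE was 0.227 and the limma adjusted p-value 0.430. The log2 fold change was -0.19 without control replicate 1 and -0.59 without Mad knockdown replicate 2, while that of Atg16 stayed between -0.50 and -0.36 whichever library was left out. Atg3, the E2-like enzyme for Atg8a, and the protease genes Atg4b and Atg4a had log2 fold changes of -0.09, -0.19 and 0.15. Exons of CG4629 on the opposite strand cover 51.4% of the exon bases of Atg4a. CG4629 held a mean of 113 normalized counts in controls, against 17162 for Atg4a. The part of the shared bases in the Atg4a value was not tested.

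Atg10, the E2-like enzyme for Atg12, had the members' smallest log2 fold change in size, under 0.01, with an interval from -0.36 to 0.35. Exons of CG12822 on the same strand and of Dgk on the opposite strand cover 50.1% of its exon bases. Both of these genes were called lower after Mad knockdown. CG12822 fell from a mean of 2148 to 1603 and Dgk from 1279 to 332, while Atg10 was at 401, 395 and 295 in controls and 359.6, 386 and 334 after knockdown. How the shared bases were counted is not given in the sources used here, so the Atg10 value is uncertain.

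The cargo receptor ref(2)P (FBgn0003231, plus strand of 2L, 19542468 to 19545548), the fly homologue of mammalian p62, binds ubiquitinated proteins and Atg8a. It was at 22710.0, 22116 and 21445 normalized counts in control libraries and at 26593, 25512 and 24181 after Mad knockdown. Its libraries were among the least scattered of the members, with a residual SD of 0.0568 on the log2 scale, and the groups did not overlap. The mean was 115% of control. In limma this was a change of 0.20 on the log2 scale (SE 0.0623, adjusted p = 0.153). The adjusted p-value stayed above the threshold in all 18 alternatives, from 0.0644 to 0.363. Exons of CG10337 on the opposite strand cover 7.22% of its exon bases. CG10337 was at 2458, 1314 and 1991 normalized counts in controls and at 407, 2987 and 451 after Mad knockdown. Its log2 fold change was -1.18 (limma adjusted p = 0.4685). The part of the shared bases in the ref(2)P value was not tested.

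The Rab GTPases direct membrane traffic towards the lysosome, with Rab5 on early endosomes, Rab7 on late endosomes and Rab2 in autophagosome and lysosome fusion. Rab7 was at 34284, 35734 and 31338 normalized counts in controls and 34212, 39357 and 33586 after Mad knockdown. Rab5 had a log2 fold change of 0.01 (SE 0.0872) and Rab2 of -0.12 (SE 0.0725). All 3 genes overlapped between the groups, and their intervals lay within 0.5 either way.

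The HOPS complex tethers autophagosomes and late endosomes to lysosomes, and dor, car, lt and Vps16A encode 4 of its subunits. The genes dor, car and lt were first known from eye colour mutants, since pigment granules need the same machinery. Their median residual SD was 0.0655 on the log2 scale, against 0.111 over all 32 members. lt was at 6192, 5729 and 6032 in controls and at 6764, 6245 and 5956 after Mad knockdown. dor was at 2697 ± 138 and 2707 ± 82.2, and car at 1798 ± 66.2 and 1725 ± 98.1 (SD, n = 3 each). The log2 fold changes of the 4 ran from -0.06 to 0.08, each smaller than 2 of its SEs.

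Among the lysosomal genes and their regulator, cathD was at 112156, 125520.0 and 104280.0 normalized counts in controls. After Mad knockdown it was at 106221, 114044 and 97678, with overlapping groups and a log2 fold change of -0.10 (SE 0.105). Lamp1 was at 54166 ± 3461 in controls and 57809 ± 4012 after knockdown. The regulator Mitf was at 9752, 9094 and 9019.6 in controls and at 9642, 10407 and 9047 after knockdown. spin, a lysosomal efflux transporter gene, stood furthest from control in this group. It was at 7608, 7272 and 6649 in controls and 8205, 9810.0 and 7433 after knockdown, with 2 of the 3 knockdown libraries above all controls. Its log2 fold change was 0.23 (SE 0.112, limma adjusted p = 0.326). Without Mad knockdown replicate 2 it was 0.12, and cathD, at -0.16, was then furthest from control.

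The members varied together between libraries of the same group. In the control group 17 of the 32 members were highest in replicate 1 and 14 in replicate 2, and 22 were lowest in replicate 3. In the Mad knockdown group 22 were highest in replicate 2 and 21 lowest in replicate 3. Over all tested genes each library was the highest of its group for 31.6% to 36.4% of genes. A total of 14 members, 43.8% of those tested, were highest in both control replicate 1 and Mad knockdown replicate 2, against 17.7% of all tested genes. The share is a description, since genes of one library are not independent and the libraries were picked after their values were seen.

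The size of this swing differed between members. Atg7 lay 0.39 above its group mean on the log2 scale in control replicate 1 and 0.40 above it in Mad knockdown replicate 2. For Atg13 these deviations were 0.33 and 0.43, and for Atg2 they were 0.27 and 0.23. Atg5, Atg1, Atg4b and Atg17 deviated in the same direction in both libraries, by 0.12 to 0.24. Atg9 went the other way in control replicate 1, at -0.27, and Atg16 was below its group mean in both libraries, at -0.11 and -0.10. Among the members named in this paragraph, the deviation in both libraries was larger than the group difference for Atg7, Atg13, Atg2, Atg5, Atg1 and Atg17.

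Marker sums were set beside these libraries. The muscle sum was highest of its group in control replicate 1, at 3872970, and lowest in Mad knockdown replicate 2, at 1442280, so it did not move with the members in both. The fat body sum was lowest of its group in both, at 26534 and 21845. The summed level of 10 ecdysone response genes was highest of its group in both, at 626331 and 744574. One gene, br, made up 54.1% of that sum, and 3 of the 10 genes were highest in both libraries. The part of larval timing or tissue content in the members' swing was not tested.

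**Figure D4:**
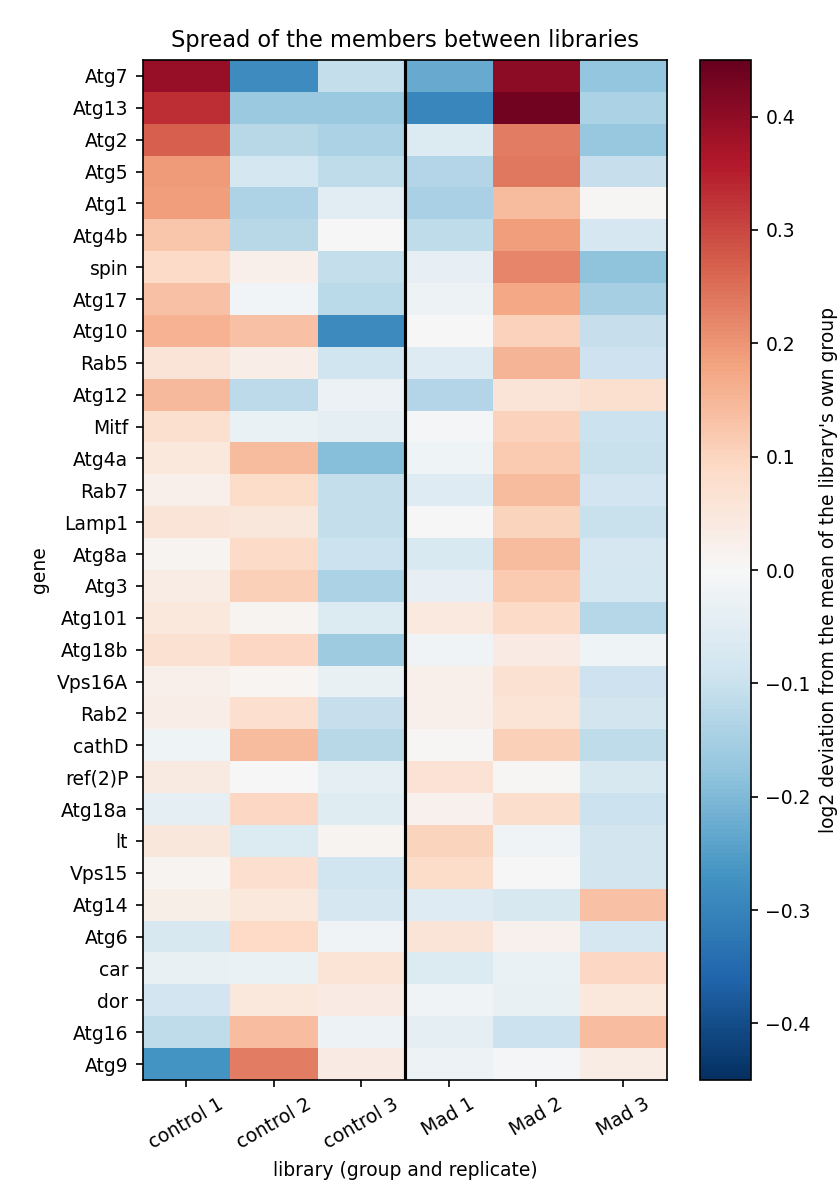
Log2 deviation of each tested member from the mean of its own group in the 6 libraries (red above, blue below), with genes ordered by the sum of control replicate 1 and Mad knockdown replicate 2. Atg7, Atg13 and Atg2 stand highest in these libraries, while Atg9 and Atg16 lie at the other end.

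Other genes of the pathway were taken from 4 lists, and 1 of the 96 genes tested in them (1.04%) was called, against 2.59% of all tested genes. Counts at an unadjusted p-value under 0.05 are to be read against 8.31% higher and 10.7% lower over all tested genes. It was Rab9 (FBgn0032782, plus strand of chromosome 2L, 19432574 to 19435841), a GTPase that acts between late endosomes and the Golgi in mammalian cells. Rab9 was at 478, 608 and 677 normalized counts in controls and at 182, 138 and 133 after Mad knockdown, with no overlap. It fell by 1.95 on the log2 scale (SE 0.186, limma adjusted p = 0.00742). The other 32 tested genes of that list, on fusion and endosome machinery, included 2 higher and 1 lower at an unadjusted p-value under 0.05. The median of the list was 0.02.

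The list of ESCRT genes, which sort cargo into endosomes, gave a median change of 0.04 on the log2 scale over 18 genes. In it 2 genes were higher and 0 lower at an unadjusted p-value under 0.05 in limma, and 0 were called. The list of autophagy regulators had a median of -0.01 over 25 genes, with 1 higher and 2 lower at that level and 0 called. The list of lysosomal hydrolases and storage-disease homologues had a median of -0.02 over 20 genes, with 3 higher and 2 lower and 0 called. In 5 of its 20 genes (25%) the groups did not overlap, against 24.6% of all tested genes: Cln3, Hexo1 and Ppt1 were higher and Npc2a and Gal lower. These are named after their values were seen, and the largest differences were those of Cln3 and Hexo1. Cln3, the homologue of a lysosomal membrane protein gene of human Batten disease, was at 10029 ± 180.0 in controls and 14072 ± 1971 after Mad knockdown (log2 fold change 0.48, limma adjusted p = 0.0654). Hexo1, a hexosaminidase gene, was at 19046 ± 966 and 25724 ± 2547 (0.43, limma adjusted p = 0.0593). Npc2a, a sterol transfer protein gene, was at 76.4% of control and the galactosidase gene Gal at 80.8%, with limma adjusted p-values of 0.0938 and 0.148.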

How the data were processed

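The deposited table held normalized counts as a signal per gene and library, in the authors' scaling. Every value was a whole multiple of 1 step per column within a tolerance of 0.001 (100% of values), so the values were taken as counts over a size factor for each library, and the counts were recovered. The build was dm6, per the submitters' processing notes; aligner, counter, annotation and strand setting are not given in the sources used here. Coordinates and exon lengths came from the Ensembl 115 annotation of BDGP6.54, in which all 33 member identifiers were found.

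limma 3.58.1 (R 4.3.3; lmFit, eBayes with a trend) was run on log2(normalized count + 1) of 10348 genes with at least 10 in at least 3 libraries, Mad knockdown against control, no covariate, two-sided. A call needed a p-value under 0.05 after Benjamini-Hochberg adjustment over all tested genes. The log2(value + 1) scale understates changes of low genes. edgeR 4.0.16 and DESeq2 1.42.0 on recovered counts were alternatives. The fits were also run on simulated data, in which the changes set were larger than that of any member. That run does not show how well changes of the members' size are found. The members and lists were chosen with earlier results of these data known. Values in every library are given for members called and members with an unadjusted p-value under 0.05. They are also given for the member with the highest mean normalized count in each role group, not per kilobase. Other members given in this way were chosen after their values were seen. Names in the lists that the table lacked were left out, and 6 list names were changed to those of the table.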

Additional observations from a re-analysis of the deposited data

How the results depend on the processing

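The number of members called was 0 in 17 of the 18 alternatives, including each fit that left out 1 library (0 to 0), and 2 in DESeq2 (Atg16 with adjusted p = 0.00351, Atg6 with 0.0147). Atg16, Atg6, Atg12 and ref(2)P kept their direction in all 18. At the 4 scalings tried, 17 or 18 members were higher and 14 or 15 lower.

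Over all genes 268 were called (106 higher, 162 lower). limma without a trend called 138, DESeq2 998 and the fit with a replicate block 117. The fits that left out 1 library called 43 to 193, with the lowest count without control knockdown replicate 2. After quantile normalization 131 of 269 calls were higher, and after 75th percentile scaling 122 of 257. The log2 fold change of Mad lost its call without a trend (-0.57), with a replicate block (-0.57) and in edgeR (-0.55). With 1 library left out its values were -0.66 to -0.47, and 1 of these 6 fits, without Mad knockdown replicate 2, kept the call. Fits without a library have fewer samples by construction, and otherwise the cause was not tested. The replicate block changed no call of a member; libraries with the same number deviated from their groups with correlations of -0.14, -0.07 and 0.04, and share only that number.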
